A study of Saccharomyces kudriavzevii and Saccharomyces cerevisiae and Kluyveromyces marxianus with 12 samples.

Results

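Sphingolipids are membrane lipids built on a long-chain base, and in budding yeast their synthesis starts in the endoplasmic reticulum with serine palmitoyltransferase (SPT), which joins serine to a fatty acyl-CoA. The long-chain base is then joined to a very long chain fatty acid by ceramide synthase, and ceramidases take ceramide apart again. Orm1 and Orm2 are membrane proteins that hold SPT back until they are phosphorylated. Heat is known to bring a rise of long-chain bases and ceramides in yeast cells. The 10 genes described here encode enzymes and regulators of these steps, and were taken by their systematic names: *LCB1* (YMR296C), *LCB2* (YDR062W), *SUR2* (YDR297W), *ORM1* (YGR038W), *ORM2* (YLR350W), *LAG1* (YHL003C), *LAC1* (YKL008C), *YPC1* (YBR183W), *YDC1* (YPL087W) and *LCB5* (YLR260W). They are 10 of the 6017 *S. cerevisiae* genes that were counted and of the 5786 that passed the filter on low counts and were tested. All 10 passed that filter.

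Transcripts were measured by sequencing of poly(A) RNA from *S. cerevisiae* BY4742, a haploid laboratory strain of mating type alpha whose *ura3*, *leu2*, *his3* and *lys2* deletions are carried by every library. Cells grew in YPD with 2% dextrose at 33 °C, the growth optimum of the species in this study, and were then held for 8 min at 33 °C (control) or at 40 °C (heat shock, the temperature of the highest Hsp70 response). Each condition had 2 libraries from biological replicates, so every p-value rests on 2 against 2 libraries of a single strain, medium and time point. Libraries of *S. kudriavzevii* and *K. marxianus* in the same series were not analysed here. The time is that of the labels and the methods, although the study's text elsewhere speaks of a longer heat stress. The comparison asks how transcripts of this pathway differed between growth and heat shock.

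Between 18911098 and 23476002 read counts fell on genes in a library, and the 10 most abundant genes took 10.8% to 11.5% of them in the controls and 18.1% to 18.3% after heat shock. The labels held against the strain and condition markers that were checked, which did not include *HIS3*. *URA3*, *LEU2* and *LYS2* had 0 counts in all 4 libraries (a floor of 3 counts), and the heat shock genes *SSA4* and *HSP104* rose by 7.05 and 4.33 on the log2 scale. All 3 alpha-cell genes checked (*MF(ALPHA)1*, *MF(ALPHA)2* and *STE3*) fell, from summed levels of 2299 and 2360 CPM (counts scaled to a common library size) in the controls to 128 and 155 after heat shock. All 3 a-cell genes (*MFA1*, *MFA2* and *STE2*) rose, from 11.8 and 13.1 to 23.2 and 26.0 CPM in sum. These levels are low: *MFA1* and *MFA2* had 25 to 75 counts in a library, and *STE2* made up most of the sum. The part of either list in the values below was not tested.

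Some of the 10 genes rose after heat shock and others fell. Both ceramidase genes and the long-chain base kinase gene *LCB5* rose, while the genes for both large SPT subunits, the long-chain base hydroxylase gene *SUR2* and the ceramide synthase gene *LAG1* fell. Neither *ORM* gene passed the test, nor did *LAC1*. A gene was called at an adjusted p under 0.05 in the quasi-likelihood test of edgeR, with p-values adjusted by the Benjamini-Hochberg method over all 5786 genes. By this rule 3 of the 10 genes were higher, against 33.7% of all genes tested, and 4 were lower, against 32.7%. The 7 genes called in either direction stand beside 66.4% of all genes, so the share called is near the background, and the median log2 fold change of the 10 genes was -0.23 beside 0.03 for all genes tested. The CPM values of the conditions did not overlap for 10 of 10 genes, against 85.4% of all genes. In TPM, the deposited level that divides by gene length and scales libraries otherwise than CPM, the conditions overlapped for *LCB1* and *LAC1*. Gene length alone cannot change such an overlap. The share of all genes that overlapped in TPM was not computed.

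**Figure D1:**
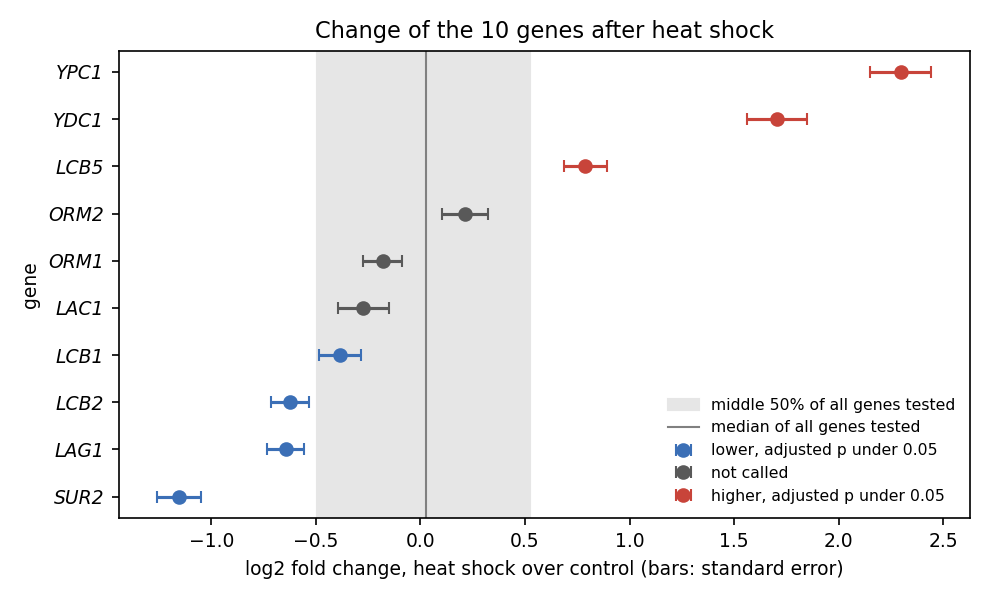
Log2 fold change (x axis, heat shock over control) of each of the 10 genes (y axis), with bars of 1 standard error from 2 control and 2 heat shock libraries; the band covers the middle 50% of all 5786 genes tested and the line their median. *YPC1* at 2.30 and *YDC1* at 1.70 lie farthest to the right, and *SUR2* at -1.15 lies farthest to the left.

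Each of the 10 genes is a single coding exon in the R64 annotation, and none overlaps another annotated gene. Their annotated spans hold coding sequence only. Reads from untranslated ends of neighbours on the other strand, which a count without strand would include, were not looked for. The smallest gap among the 10 is 108 bases, between *ORM2* and *NIT3* on the other strand. Windows from 250 bases before to 50 bases after the start codon were read from the R64 genome for 6020 genes and searched on both strands for 3 motifs. AGGGG is the core of the stress response element, the site of the stress factors Msn2 and Msn4, while TTCNNGAA and GAANNTTC are the ways in which a pair of heat shock factor units can adjoin, each of which reads the same on both strands. AGGGG was present in 3 of the 10 windows and in 21.6% of all windows, TTCNNGAA in 2 of the 10 and in 12.8%, and GAANNTTC in 1 of the 10 and in 11.8%. The stretches of 30 bases around these matches are shown because they include the windows of both ceramidase genes, with the motif in capitals and each read 5′ to 3′ along the gene.
*YPC1*, AGGGG from base -83 of the start codon, chrII:596020-596049, plus strand: agttattgtgtaAGGGGtttttataaggtc
*YDC1*, TTCNNGAA from base -76, chrXVI:383368-383397, plus strand: tcgtttttcaaTTCAAGAAtttaagcaaaa
*ORM1*, TTCNNGAA from base -159, chrVII:560512-560541, plus strand: atttcagtggaTTCACGAAacaagaaaaat
*LCB1*, AGGGG from base -222, chrXIII:861096-861125, minus strand: attcttttttatAGGGGcatattgctgcgg
*LCB2*, GAANNTTC from base -53, chrIV:576410-576439, plus strand: aaaagcataaaGAAGATTCcacacacttta
*LCB2*, AGGGG as its reverse complement, in coding sequence from base 31, chrIV:576492-576521, plus strand: tatacccgtgtgCCCCTgtgcgaaccagag
The windows of *YPC1* and *YDC1* thus held different motifs, and genes that fell (*LCB1* and *LCB2*) held matches as well. None of the 3 motifs was found in the windows of *SUR2*, *ORM2*, *LAG1*, *LAC1* or *LCB5*. A match describes letters in the sequence and is not evidence of binding.

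The rise was steepest in the ceramidase genes, whose products release a long-chain base from ceramide. *YPC1*, which encodes an alkaline ceramidase that acts mainly on phytoceramide (chrII:596115-597065, plus strand), measured 19.9 and 17.5 CPM in the control libraries and 82.8 and 101 CPM after heat shock. Both heat shock libraries lay far above both controls, and the counts behind them, 385 and 412 in the controls and 1909 and 1897 after heat shock, include the lowest of any of the 10 genes. The log2 fold change was 2.30 ± 0.15 (SE, adjusted p = 1.92e-05, edgeR), a 4.91-fold rise at percentile 97.4 of all genes tested.

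*YDC1*, which encodes the related ceramidase with a preference for dihydroceramide (chrXVI:383455-384408, plus strand), measured 81.6 and 61.2 CPM in the controls and 235 and 229 CPM after heat shock. The controls lay farther apart than the heat shock libraries, and the conditions were well separated. It rose by 1.70 ± 0.14 on the log2 scale (SE, adjusted p = 6.45e-05, edgeR), a 3.26-fold change at percentile 94.8. When single libraries were left out, the change ranged from 2.13 to 2.43 on the log2 scale for *YPC1* and from 1.51 to 1.90 for *YDC1*, and both were called each time.

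The nearest profiles to that of *YPC1* were sought as the smallest Euclidean distance between log2 CPM values centred over the 4 libraries. They belonged to *FES1*, an Hsp70 nucleotide exchange factor gene, at a distance of 0.0636, followed by *SDH9* at 0.129 and *BDH1*, a butanediol dehydrogenase gene, at 0.142. *FES1* measured 134 and 117 CPM in the controls and 560 and 712 CPM after heat shock. With only 4 libraries these distances are a description.

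Long-chain bases are also phosphorylated, by the kinases Lcb4 and Lcb5. *LCB5*, the gene of the minor kinase (chrXII:665844-667907, plus strand), measured 48.3 and 48.4 CPM in the controls and 84.5 and 82.6 CPM after heat shock. The replicates were closer together here than for the ceramidases. The rise was 0.79 ± 0.10 on the log2 scale (SE, adjusted p = 0.000589, edgeR), which is 1.73-fold and percentile 83.5.

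Of the 5 genes among the 10 that encode enzymes of long-chain base and ceramide synthesis, 4 fell and *LAC1* was not called. Over all genes tested 32.7% were lower, and a count over so few genes was not tested. *SUR2*, whose hydroxylase turns dihydrosphingosine into phytosphingosine, the main long-chain base of yeast (chrIV:1056551-1057600, plus strand), measured 161 and 175 CPM in the controls and 81.3 and 69.7 CPM after heat shock. Both heat shock libraries lay far under the controls. It fell by 1.15 on the log2 scale (SE 0.11, adjusted p = 9.89e-05, edgeR), a 2.22-fold drop and the largest fall among the 10 genes.

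*LCB2*, the gene of the catalytic SPT subunit (chrIV:576474-578159, plus strand), measured 329 and 358 CPM in the controls and 222 and 225 CPM after heat shock, without overlap. The fall was -0.62 ± 0.09 on the log2 scale (SE, adjusted p = 0.000887, edgeR), or 1.54-fold. *LCB1*, the gene of the partner subunit (chrXIII:859215-860891, minus strand), measured 232 and 253 CPM in the controls and 175 and 197 CPM after heat shock. Its log2 fold change of -0.38 ± 0.10 (SE, adjusted p = 0.0125, edgeR) was the smallest of those called, at percentile 29.7. In TPM its conditions overlapped, with 97.3 and 112 in the controls and 90.4 and 100 after heat shock, and its call was lost without heat shock replicate 1 (-0.30, adjusted p = 0.135, edgeR) and in limma on log2(TPM + 1) (-0.13, adjusted p = 0.313).

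Ceramide synthase of yeast has the catalytic subunits Lag1 and Lac1, which are made from duplicated genes. *LAG1* (chrVIII:100648-101883, minus strand) measured 211 and 233 CPM in the controls and 140 and 144 CPM after heat shock, without overlap. It fell by 0.64 on the log2 scale (SE 0.09, adjusted p = 0.000748, edgeR), or 1.56-fold. *LAC1* (chrXI:427295-428551, minus strand) measured 223 and 206 CPM in the controls and 197 and 158 CPM after heat shock, so that the heat shock libraries lay farther apart than the means of the conditions. Its log2 fold change was -0.27 ± 0.12 (SE, adjusted p = 0.0863, edgeR), which was not called, and its TPM values overlapped, with 125 and 121 in the controls and 135 and 107 after heat shock. Without heat shock replicate 1 it was -0.44 (adjusted p = 0.0514, edgeR) and without heat shock replicate 2 it was -0.15 (adjusted p = 0.462). With the replicate number as a block, *LAC1* was called lower (-0.28, adjusted p = 0.0131, edgeR).

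The *ORM* genes, which encode the inhibitors of SPT, did not pass the test. *ORM1* (chrVII:560682-561350, plus strand) measured 92.5 and 88.5 CPM in the controls and 78.7 and 81.1 CPM after heat shock, with a log2 fold change of -0.18 ± 0.09 (SE, adjusted p = 0.125, edgeR). *ORM2* (chrXII:828730-829380, plus strand) measured 100 and 89.2 CPM in the controls and 118 and 102 CPM after heat shock, with a log2 fold change of 0.21 ± 0.11 (SE, adjusted p = 0.124, edgeR). In CPM the conditions of either gene did not overlap, by a narrow margin for *ORM2*. Without heat shock replicate 1 the *ORM2* change was 0.11 (adjusted p = 0.621, edgeR), and without control replicate 2 it was 0.13 (adjusted p = 0.314). In TPM *ORM1* measured 97.0 and 97.8 in the controls and 102 and 103 after heat shock, and *ORM2* 108 and 101 against 156 and 133. The sign of *ORM1* therefore turned with the scale, to 0.07 in limma on log2(TPM + 1). *ORM2* was called higher in that fit (0.46, adjusted p = 0.00737) and with the replicate block (0.21, adjusted p = 0.0396, edgeR). The median change of all genes was 0.26 on log2(TPM + 1) and 0.03 in the count test, so the *ORM1* value lay under the median of its fit and the *ORM2* value above it on either scale. These are differences in transcript level and say nothing of the phosphorylation by which Orm proteins are regulated.

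**Figure D2:**
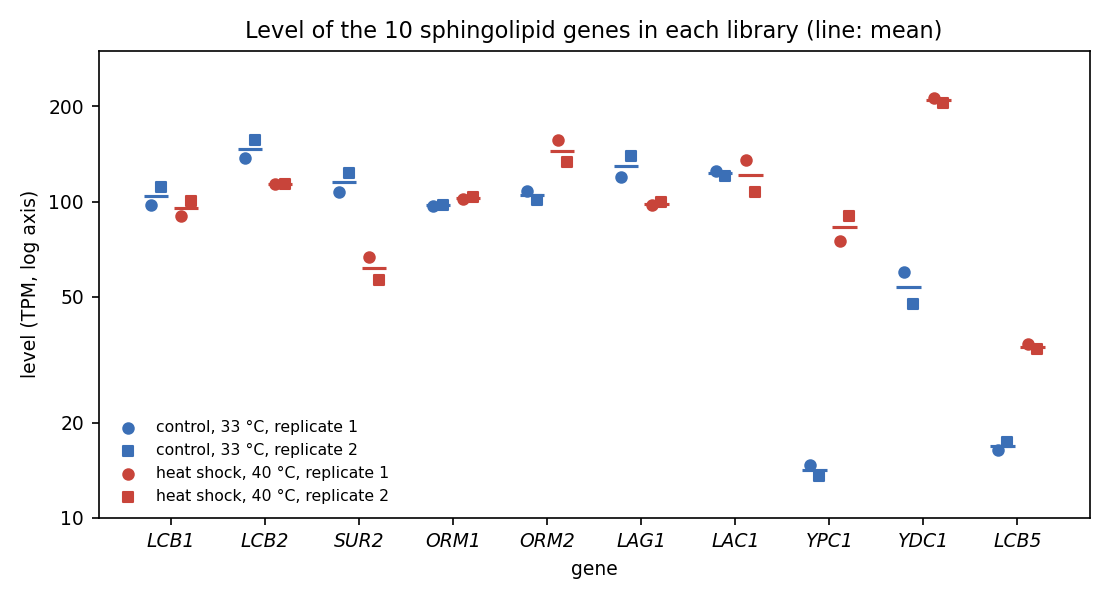
Level of each of the 10 genes (x axis) in TPM (y axis, log scale) in the 2 control and 2 heat shock libraries, with circles for replicate 1, squares for replicate 2 and lines for the condition means. *YDC1* rises from a mean of 53.7 to 209 TPM and stands above the other genes after heat shock, while the *ORM1* points lie between 97.0 and 103 TPM in all libraries.

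Levels of the 10 genes relative to each other, which need a value per length, are given in TPM as the mean of the 2 libraries. In the controls the order was *LCB2* (147 ± 14.1 SD), *LAG1* (130 ± 13.6), *LAC1* (123 ± 2.69), *SUR2* (115 ± 11.1), *ORM2* (105 ± 4.79), *LCB1* (104 ± 10.1) and *ORM1* (97.4 ± 0.56), in which each gene overlapped the next. *YDC1* followed at 53.7 ± 8.93, *LCB5* at 16.9 ± 0.66 and *YPC1* at 14.1 ± 0.78, each apart from its neighbours. The genes that rose were thus the 3 least abundant of the 10 in growing cells. After heat shock *YDC1* led at 209 ± 5.82 TPM, without overlap with the next gene. It was followed by *ORM2* (145 ± 16.1), *LAC1* (121 ± 19.7) and *LCB2* (114 ± 0.03), which overlapped in turn, and by *ORM1* (102 ± 1.16), which stood apart from *LCB2* and *LAG1*. *LAG1* (98.6 ± 1.10), *LCB1* (95.3 ± 6.95) and *YPC1* (82.8 ± 10.7) overlapped in turn, and *SUR2* (61.8 ± 7.33) and *LCB5* (34.7 ± 0.89) came last without overlap. The median tested gene measured 29.1 and 30.4 TPM in the controls and 34.3 and 33.3 TPM after heat shock, so in growing cells *YPC1* and *LCB5* lay under the median gene and the other 8 genes above it. In bulk RNA, fewer cells with a transcript and less of it per cell cannot be told apart.

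Within a library, the ratio of a gene to its paralog or partner does not depend on the scaling between libraries. Reads that did not align uniquely were 3.27% to 4.04% of the total and were not counted. The aligned coding sequences of the paralogs were identical at 68.7% of bases for *ORM1* and *ORM2*, 61.7% for *YPC1* and *YDC1*, 69.4% for *LAG1* and *LAC1* and 68.0% for *LCB4* and *LCB5*. The longest run of bases found in both coding sequences, at any position, is shown for the 3 pairs within the 10 genes, in lower case. It was sought without the alignment.
*ORM1* bases 196 to 209 and *ORM2* bases 181 to 194 of the coding sequence: gaaaatgaccagca
*YPC1* bases 254 to 266 and *YDC1* bases 251 to 263: tatttcatatgac
*LAG1* and *LAC1* bases 617 to 635: caatgtacagaacatatcc
The longest of these is 19 bases.

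The log2 ratio of *YPC1* to *YDC1* in TPM was -2.03 and -1.80 in the controls and -1.50 and -1.18 after heat shock, a difference of 0.57 between the means. *YDC1* was the more abundant ceramidase transcript in all 4 libraries, by a narrower margin after heat shock. The ratio of *ORM1* to *ORM2* was -0.15 and -0.05 in the controls and -0.62 and -0.37 after heat shock, so the difference was -0.39 and *ORM2* was ahead in all 4 libraries. The ratio of *LAG1* to *LAC1* was -0.06 and 0.20 in the controls and -0.47 and -0.11 after heat shock, a difference of -0.36 that became -0.19 without heat shock replicate 1 and -0.23 without control replicate 2. For *LCB5* over *LCB4*, the gene of the major kinase, it was -0.86 and -0.95 in the controls and -0.19 and -0.30 after heat shock, a difference of 0.67, with *LCB4* ahead throughout. *LCB2* stood over *LCB1* by 0.49 in both controls and by 0.33 and 0.18 after heat shock, a difference of -0.24. No ratio overlapped between conditions, yet with 2 against 2 libraries the exact two-sided permutation test cannot go below p = 0.333, which was its value for all 5 pairs before and after adjustment over them.

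**Figure D3:**
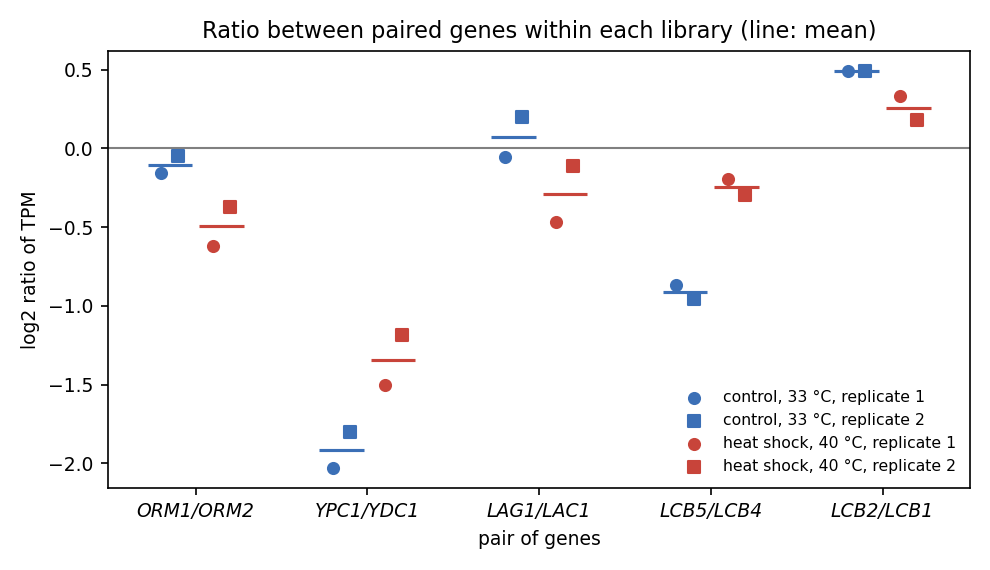
Log2 ratio of TPM (y axis) between the genes of 5 pairs (x axis) in each of the 2 control and 2 heat shock libraries, with lines for the condition means. The *LCB5* to *LCB4* and *YPC1* to *YDC1* ratios are higher after heat shock, by 0.67 and 0.57, and the other 3 are lower.

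The other genes of the pathway were taken from a list of 40 that includes the 10. Of the 40, 10 were called higher and 16 lower, near the 33.7% and 32.7% of all genes tested, with a median log2 fold change of -0.06 beside 0.03 for all genes, and of the 30 others 7 were higher and 12 lower. The counts by role below are of few genes each, are to be read against the same shares, and were not tested against each other. In long-chain base synthesis 4 of 5 genes fell and none rose. *TSC10*, the 3-ketosphinganine reductase gene that acts between SPT and Sur2, fell by 1.10 on the log2 scale (SE 0.11, adjusted p = 0.000144, edgeR), from 90.8 and 97.6 CPM to 45.0 and 42.8 CPM. *TSC3*, the gene of a small protein that stimulates SPT, had a log2 fold change of -0.07 and was not called.

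Among 4 genes of ceramide synthesis *LAG1* was the only one called. *LIP1*, the gene of a required further subunit of ceramide synthase, had a log2 fold change of 0.20 (adjusted p = 0.132, edgeR) and *SCS7*, the ceramide hydroxylase gene, one of -0.07. *LIP1* was called higher without control replicate 1 (0.31, adjusted p = 0.0210, edgeR), with the replicate block (0.21, adjusted p = 0.0497, edgeR) and in limma on log2(TPM + 1) (0.46, adjusted p = 0.00534). The very long chain fatty acids that ceramide synthase uses are made by an elongation cycle, of whose 5 listed genes 4 fell. The elongase genes *ELO2* and *ELO3* each fell by 1.86 on the log2 scale (adjusted p = 9.90e-06 and 1.12e-05, edgeR), which are the largest falls on the list. *ELO3* went from 538 and 592 CPM in the controls to 148 and 162 CPM after heat shock. *PHS1*, the dehydratase gene of the cycle, fell by 0.64 on the log2 scale.

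Of the 6 genes for long-chain base kinases, phosphatases, lyase and export, 2 rose and 2 fell. *DPL1*, the gene of the lyase that breaks down phosphorylated long-chain bases, rose by 0.63 on the log2 scale, from 115 and 119 CPM to 176 and 189 CPM, while the phosphatase gene *LCB3* fell by 0.74. *LCB4* had a log2 fold change of 0.12 (adjusted p = 0.290, edgeR) and was not called, although limma on log2(TPM + 1) called it higher (0.37, adjusted p = 0.0162). Of the 7 genes for complex sphingolipids 4 fell and none rose. *AUR1*, which encodes the catalytic subunit of inositol phosphorylceramide synthase, fell by 1.40 on the log2 scale (adjusted p = 2.79e-05, edgeR), from 216 and 236 CPM to 90.1 and 81.8 CPM. *ISC1*, the gene of the phospholipase that returns complex sphingolipids to ceramide, fell by 0.39 (adjusted p = 0.0202, edgeR), a call lost without heat shock replicate 1 (-0.34, adjusted p = 0.133), without heat shock replicate 2 (-0.46, adjusted p = 0.0555) and in limma on log2(TPM + 1) (-0.13, adjusted p = 0.317).

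The list also holds 9 genes for kinases upstream of the Orm proteins and for components and effectors of TORC2, a kinase complex that activates them. Of these 6 were called higher, against 33.7% of all genes, and 1 lower. *SLM1*, a TORC2 effector gene among the 6, overlaps an annotated gene on the other strand by 141 bases, so its unstranded count is uncertain. *YPK2*, a paralog of the kinase gene *YPK1* whose product phosphorylates Orm1 and Orm2, rose by 2.27 on the log2 scale (SE 0.16, adjusted p = 3.20e-05, edgeR), from 10.9 and 14.9 CPM to 57.5 and 67.9 CPM. *YPK1* itself rose by 0.37 (adjusted p = 0.00553, edgeR), from 120 and 118 CPM to 153 and 154 CPM. Its call was lost at changes of about the same size without heat shock replicate 1 (0.37, adjusted p = 0.0822) or replicate 2 (0.34, adjusted p = 0.0959). *PKH1* and *PKH2*, the genes of kinases that activate the Ypk proteins, rose by 0.83 and 0.69. The counts over the 40 genes moved with the fit, as did those over all genes. In limma on log2(TPM + 1) 17 of the 40 were higher and 9 lower. Over all 5748 genes tested in that fit, 2706 were higher and 1275 lower.

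**Figure D4:**
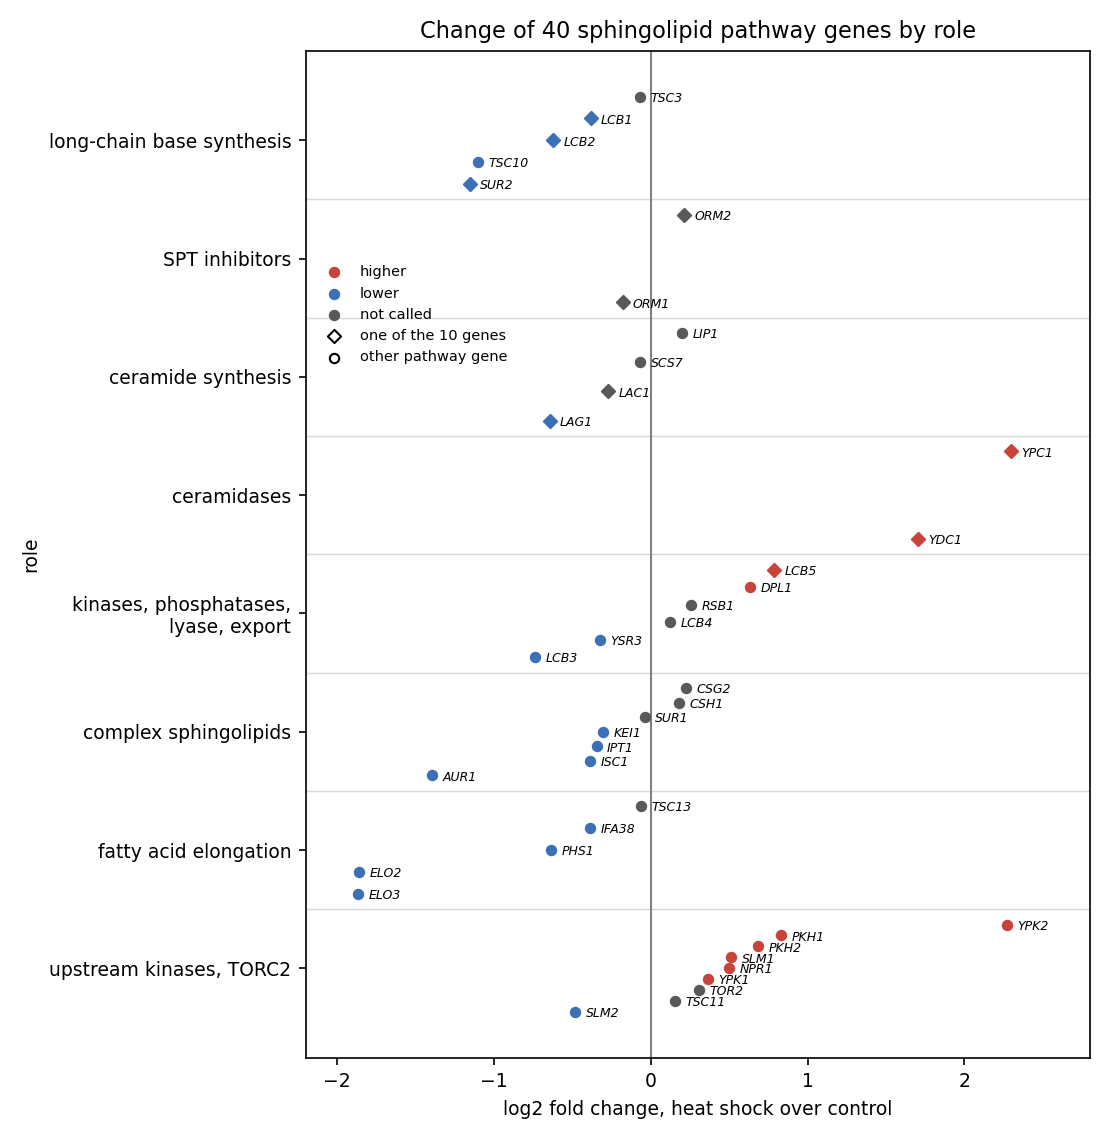
Log2 fold change (x axis, heat shock over control) of the 40 listed genes grouped by role (y axis), from 2 control and 2 heat shock libraries, with diamonds for the 10 genes, circles for the others and colours for the call at an adjusted p under 0.05. *YPC1* and *YPK2* lie near 2.3, and *ELO2*, *ELO3*, *AUR1*, *SUR2* and *TSC10* lie under -1.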

How the data were processed

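RNA-seq libraries of *S. cerevisiae* BY4742 were grouped by temperature from their labels. The authors trimmed adapters with Trim Galore 0.6.10, aligned with STAR 2.7.10b to R64 and assigned reads to coding sequences with HTSeq 2.0.2, ignoring strand. The deposited counts are whole numbers per gene, and 5 tallies of unassigned reads (5.91% to 6.60% of the total) were left out. The authors also deposited TPM, stacked in a single column and therefore read as a score.

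Counts were tested with edgeR 4.0.16 in R 4.3.3 (TMM, filterByExpr, glmQLFit and glmQLFTest, no covariate). CPM are counts scaled to a common library size with the TMM factors. A standard error is the log2 fold change divided by the square root of F. Alternatives were RLE factors, library totals, no filter, DESeq2 1.42.0, the replicate number as a block, limma 3.58.1 on log2(TPM + 1), and each library left out. At between 18911098 and 23476002 counts per library, the spread between replicates (common dispersion 0.0112), more than counting error, limits precision. Replicates differed by more than sampling noise.

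The 10 genes and the lists were chosen with earlier results of these data known. Named besides them are the 10 listed genes with the largest called changes, 9 direct partners (3 of which are also among the former) and the 3 profiles nearest to that of *YPC1*. *SLM1* was named after its values were seen. Sequences came from R64. Proteins were not compared.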

Additional observations from a re-analysis of the deposited data

How the results depend on the processing

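The calls of *YPC1*, *YDC1*, *LCB5*, *SUR2*, *LCB2* and *LAG1* kept their direction and stayed under an adjusted p of 0.05 in all 10 alternatives. The number of the 10 genes called was 3 to 4 higher and 3 to 5 lower. Over the 40 listed genes limma on log2(TPM + 1) called 17 higher and 9 lower, and fits without a library called 8 to 12 higher and 9 to 16 lower, the lowest of each without heat shock replicate 1. These fits leave a condition with a single library, which is assumed to vary like the others. Over all genes the calls without a library ranged from 1379 to 1961 higher and from 1426 to 2007 lower. DESeq2 called 1733 higher and 1869 lower. In limma on log2(TPM + 1) 2706 genes were higher and 1275 lower, so that 68.0% of calls were higher against 50.7% in the count test, and the median of the 10 genes was 0.02. The cause of these shifts was not tested.

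With the replicate block 2210 genes were higher and 2092 lower, and of the 10 genes 4 were higher and 5 lower, with *ORM2* and *LAC1* added to the calls. Of the 40 genes 15 were higher and 17 lower. The deviations of same-numbered libraries correlated at 0.57, but with 2 replicates a condition and labels that give only a number, the libraries are not taken as paired. The differences between conditions in the ratios of paired genes kept their sign with TPM + 1. With raw counts they were the same by construction, because gene length and library size cancel in them. As no ratio overlapped between conditions, these differences could not change sign without any single library. Without a library they ranged from -0.52 to -0.27 for *ORM1* over *ORM2*, from -0.54 to -0.19 for *LAG1* over *LAC1*, from -0.31 to -0.16 for *LCB2* over *LCB1*, from 0.41 to 0.73 for *YPC1* over *YDC1* and from 0.61 to 0.72 for *LCB5* over *LCB4*. Their p-values, which cannot go below 0.333, say nothing of stability. In the count test without the block, *ORM1*, *ORM2* and *LAC1* were not called. That test takes the spread of a gene partly from all genes, so it does not measure the gene's own spread between 2 libraries a condition.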
